A study of Mus musculus with 5 samples.

Results

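The barcodes described here are the platelet barcodes of a single-cell RNA sequencing series on blood mononuclear cells from mice. A barcode marks the RNA captured in 1 droplet, and its RNA molecules are counted by unique molecular identifiers (UMIs). Barcodes were kept if 200 or more genes were detected in them and if mitochondrial RNA gave less than 10% of their UMIs. A kept barcode counted as a platelet barcode if the 8 genes Pf4, Ppbp, Gp9, Clec1b, Tubb1, Itga2b, Gp1bb and Treml1 together made up at least 1% of its UMIs and if it held no UMI of Cd79a, Cd3e or Lyz2. These clauses left 242 of 62028 kept and 66693 deposited barcodes. They are described in 2 depth classes, deep barcodes with 2000 UMIs or more and shallow barcodes below 2000 UMIs. Only 5 of them were deep and 237 were shallow.

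The series has 5 libraries, and each animal was a C57BL/6N mouse. In 1 library the mice had received a high-fat diet (HFD) with L-NAME, an inhibitor of endothelial nitric oxide synthase, for 15 weeks and nitro-oleic acid (NO2-OA), an electrophilic fatty acid, during the last 4 of them. In 2 libraries the mice had received HFD and L-NAME for the same time without NO2-OA, a regimen used to model heart failure with preserved ejection fraction. The 2 chow libraries came from mice fed regular chow. The labels do not say how many animals entered a library, so p-values measure the spread between these libraries, which may be technical. Cells had been taken from a density gradient, freed of red cells by lysis, and then frozen and thawed. The names of the deposited files set the libraries numbered 1, the NO2-OA library included, apart from those numbered 2.

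Platelets are fragments without a nucleus that megakaryocytes shed into the blood, and they carry a stock of RNA from the parent cell with little renewal. They adhere to von Willebrand factor through the glycoprotein Ib-IX-V complex and to collagen through glycoprotein VI, and they aggregate through the integrin made of Itga2b and Itgb3. Activation releases chemokines and adhesive proteins from granules. Nitric oxide restrains platelets through soluble guanylate cyclase and cyclic GMP.

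All 5 platelet markers were present in every library, although the rule itself selected on them. Pf4, a granule chemokine, had 13778 CPM in the NO2-OA library, 14603 and 14464 in both HFD + L-NAME libraries, and 9386 and 19384 in the chow libraries, where CPM is the number of UMIs of a gene per 1000000 UMIs summed over the platelet barcodes of a library. Ppbp, another granule chemokine, had 7689.8 CPM on NO2-OA, 6722 and 8417 on HFD + L-NAME, and 5352 and 5968 on chow. The Pf4 levels of the chow libraries enclosed those of the HFD + L-NAME libraries, while both HFD + L-NAME levels of Ppbp lay above both chow levels. Clec1b, the receptor CLEC-2 for podoplanin, had 5447 CPM on NO2-OA, 6316 and 6985 on HFD + L-NAME, and 3568 and 9894 on chow. Gp9, a subunit of the von Willebrand factor receptor, had 641 CPM on NO2-OA, 1796 and 2712 on HFD + L-NAME, and 608 and 1156 on chow. For Tubb1, the tubulin of the marginal band that gives platelets their disc shape, the levels were 320.4 CPM on NO2-OA, 1333 and 1491 on HFD + L-NAME, and 223 and 1586 on chow. In the NO2-OA library the Tubb1 value rests on 1 UMI and the Gp9 value on 2 UMIs. In B-cell barcodes, taken as kept barcodes with at least 2 UMIs of Cd79a and a platelet-gene share below 0.1%, the median levels over the 5 libraries were 109 CPM for Pf4, 38.9 for Ppbp, 21.3 for Clec1b, 17.7 for Gp9 and 3.13 for Tubb1.

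Markers of other leukocytes were mostly low in the platelet barcodes, while haemoglobin RNA was not. The rule itself left out barcodes with a UMI of Cd79a, Cd3e or Lyz2, so low leukocyte sums are in part set by the selection. The 10 B-cell markers summed to 0% of UMIs in the NO2-OA library, 0.0522% and 0.150% in both HFD + L-NAME libraries, and 0.211% and 0.0538% in the chow libraries, against 0.959% to 1.20% in B-cell barcodes. Of 13 T-cell markers, Cd3d, Trac, Cd4, Cd8a and Cd8b1 were at 0 in every library, and the sum reached at most 0.0511%. Of 12 monocyte markers, Ccr2, Chil3, Ms4a6c, Ear2, Clec4a3 and Cd300e were at 0, and the sum was at most 0.0129%, against 0.293% to 0.518% in barcodes with at least 2 UMIs of Csf1r. Neutrophil markers summed to 0.0320% of UMIs on NO2-OA, 0.748% and 0.00939% on HFD + L-NAME, and 0.0243% and 0.00807% on chow. The high value came from 1 barcode of 585 UMIs in the first HFD + L-NAME library, which held 111 of the 112 UMIs of S100a8 and S100a9 there. Erythroid markers, mostly haemoglobin RNA, made up 0.481% of UMIs on NO2-OA, 5.89% and 2.12% on HFD + L-NAME, and 2.64% and 0.419% on chow. In the remaining kept barcodes the same markers made up 2.94% on NO2-OA, 2.89% and 6.03% on HFD + L-NAME, and 1.24% and 0.256% on chow. The part of haemoglobin RNA in the results below was not tested.

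Their number was small and uneven. The NO2-OA library held 5 platelet barcodes, the HFD + L-NAME libraries 26 and 108, and the chow libraries 51 and 52. As a share of kept barcodes this was 0.0345% (95% exact binomial interval 0.0112% to 0.0805%) on NO2-OA. The share was 0.218% (0.143% to 0.320%) and 1.40% (1.15% to 1.69%) on HFD + L-NAME, and 0.296% (0.220% to 0.388%) and 0.487% (0.364% to 0.638%) on chow. The intervals cover counting error only. The summed UMIs were 3121 on NO2-OA, 17257 and 85180 on HFD + L-NAME, and 49330 and 37196 on chow. A count of 0 therefore allows a level of up to 961 CPM on NO2-OA, 174 and 35.2 CPM on HFD + L-NAME, and 60.8 and 80.7 CPM on chow. Levels in the NO2-OA library are accordingly coarse, with each UMI worth 320.4 CPM.

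The median barcode held 647 UMIs, within a range of 501 to 3291, and the deposited barcodes of all libraries began at 500 UMIs. Median depth was 602 UMIs on NO2-OA, 586.5 and 635.5 on HFD + L-NAME, and 754 and 661.5 on chow. Medians of 268 genes on NO2-OA, 301 and 308.5 on HFD + L-NAME, and 431 and 341 on chow were detected. The depth distribution thus began at the lower edge of the deposited data in every library. The median mitochondrial share was 4.15% on NO2-OA, 1.64% and 2.72% on HFD + L-NAME, and 2.60% and 2.45% on chow.

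The 5 deep barcodes did not look like one population. In the second HFD + L-NAME library, 1 held 2567 UMIs, 880 genes, 0.390% mitochondrial UMIs and 2.80% of UMIs in the 8 platelet genes. The other held 3291 UMIs, 1420 genes and 9.36% mitochondrial UMIs, with a platelet-gene share of 1.28%, and was called a doublet. In the first chow library the 3 deep barcodes had 2073, 2552 and 3252 UMIs, 1251, 1484 and 1161 genes, and platelet-gene shares of 1.06%, 1.18% and 1.63%. The middle one of these was called a doublet, and 4 of the 5 deep barcodes had a smaller platelet-gene share than any library's median (2.23% to 4.00%). With no deep barcode in 3 libraries, a deep class could not be described by these clauses. Just inside the limit, at 1% to 1.25% platelet genes, lay 14 barcodes with a median of 1262.5 UMIs and 5.10% mitochondrial UMIs. Just outside, at 0.75% to 1%, lay 23 barcodes with medians of 911 UMIs and 3.72% mitochondrial UMIs.

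Nearly all deep barcodes with platelet genes were removed by the Lyz2 clause. Lyz2 encodes lysozyme, an antibacterial enzyme that is abundant in monocytes, macrophages and neutrophils. Of 3302 barcodes that met every other clause, 3060 (92.7%) held at least 1 Lyz2 UMI. By library the percentages were 95.0% on NO2-OA, 95.3% and 93.4% on HFD + L-NAME, and 93.2% and 79.7% on chow. Of the deep barcodes that met the other clauses, 5 of 1401 had no Lyz2 UMI, against 237 of 1901 shallow ones. The 3302 barcodes are called the wider platelet set below, and this set was defined after the data were seen.

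**Figure D1:**
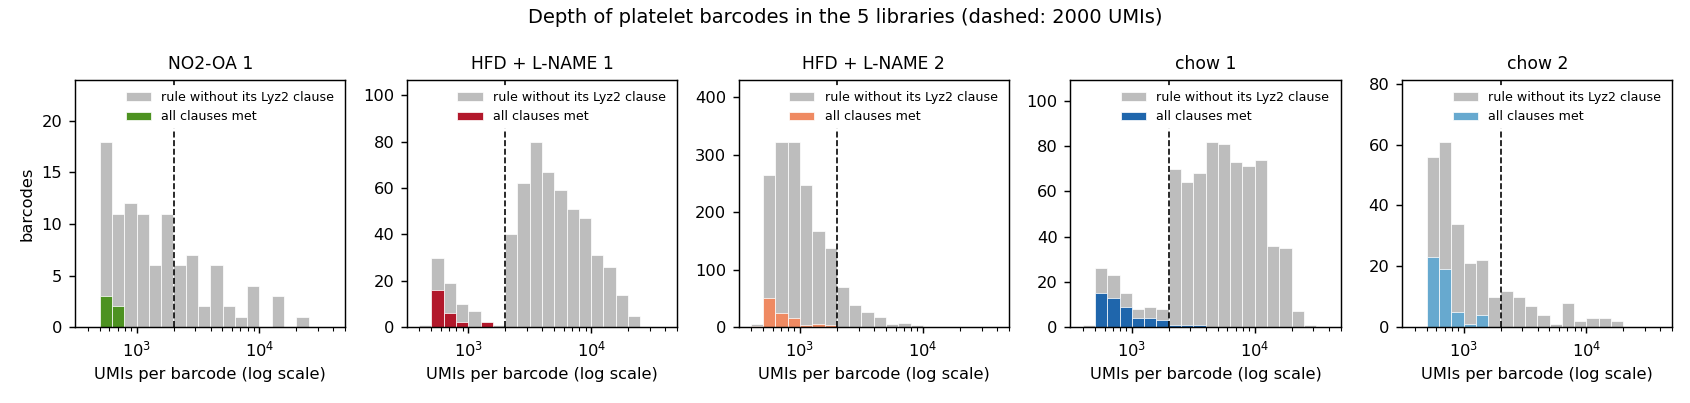
Number of barcodes (vertical axis) by UMIs per barcode (horizontal axis, log scale) in each library. Grey bars count the wider platelet set and coloured bars the barcodes that met every clause. The dashed line marks 2000 UMIs, and the coloured bars lie almost wholly to its left (237 of 242 barcodes).

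To compare the presence of Lyz2 at equal depth, each barcode was thinned at random to 500 UMIs. At that depth Lyz2 was seen in 81.3% of deep barcodes on NO2-OA, 81.7% and 82.1% on HFD + L-NAME, and 82.2% and 76.9% on chow. The percentages for shallow barcodes were 82.6% on NO2-OA, 60.0% and 83.0% on HFD + L-NAME, and 36.7% and 65.2% on chow. In B-cell barcodes they were 1.47% on NO2-OA, 2.84% and 4.99% on HFD + L-NAME, and 2.99% and 4.62% on chow. Barcodes with at least 2 UMIs of Csf1r had 85.1% on NO2-OA, 83.6% and 79.8% on HFD + L-NAME, and 69.4% and 83.6% on chow. Without thinning, the percentages were 98.8% to 100% of deep, 46.7% to 92.8% of shallow and 8.34% to 45.2% of B-cell barcodes. Barcodes of the wider platelet set thus carried Lyz2 far more often than B-cell barcodes of the same library and at the same depth. At 500 UMIs the deep ones, with 76.9% to 82.2%, lay within the 69.4% to 85.1% of barcodes with Csf1r. The level in the summed counts was 4545 CPM in deep barcodes on NO2-OA, 3206 and 6196 on HFD + L-NAME, and 3584 and 8305 on chow. Shallow barcodes had 3925 CPM on NO2-OA, 2005 and 4002 on HFD + L-NAME, and 839 and 2418 on chow. B-cell barcodes had 154 to 452 CPM. Monocyte barcodes, those with Csf1r, had 11562 CPM of Lyz2 on NO2-OA, 10731 and 13167 on HFD + L-NAME, and 4777 and 10009 on chow.

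**Figure D2:**
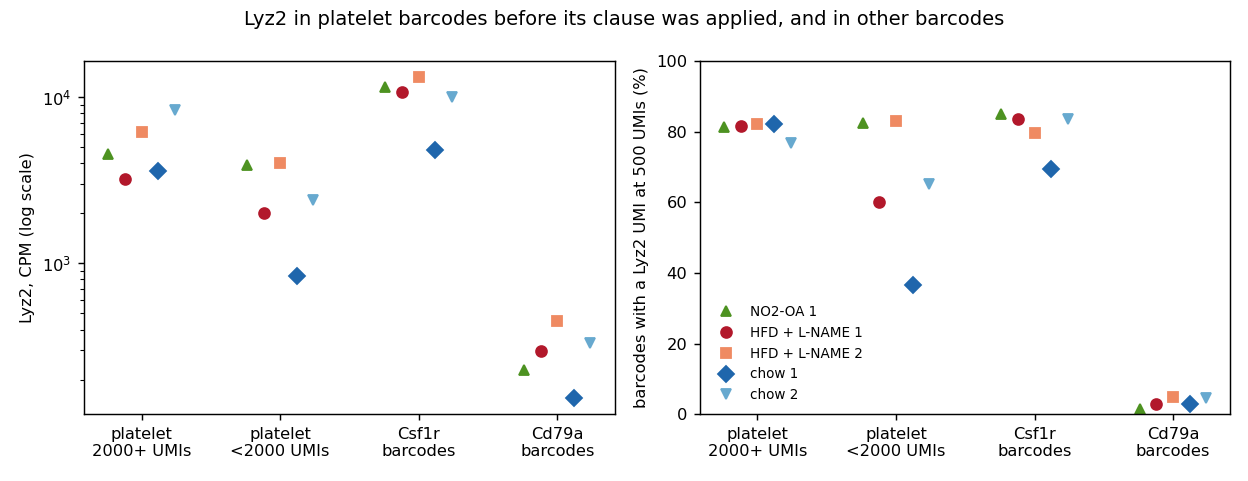
Lyz2 in deep and shallow barcodes of the wider platelet set and in B-cell and monocyte barcodes, 1 point per library. The vertical axes give the percentage of barcodes with a Lyz2 UMI after thinning to 500 UMIs and the level in CPM. Platelet points lie between 36.7% and 83.0%, against 1.47% to 4.99% for B-cell barcodes and 69.4% to 85.1% for monocyte barcodes.

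In the wider set the libraries differed in which class prevailed. It held 101 barcodes on NO2-OA, 552 and 1641 on HFD + L-NAME, and 752 and 256 on chow. Deep barcodes were 31.7% (22.8% to 41.7%) of it on NO2-OA, 87.3% (84.3% to 90.0%) and 10.5% (9.10% to 12.1%) on HFD + L-NAME, and 88.0% (85.5% to 90.3%) and 20.3% (15.6% to 25.8%) on chow. The library numbered 1 of both the HFD + L-NAME and the chow group was mostly deep, and the library numbered 2 of both groups was mostly shallow. In the first HFD + L-NAME and first chow libraries, 1 and 9 barcodes had 1500 to 2000 UMIs, and 91 and 119 had 2000 to 3000 UMIs. Among the other kept barcodes, 62 and 130 lay between 1500 and 2000 UMIs and 270 and 481 between 2000 and 3000 UMIs in these 2 libraries. The second HFD + L-NAME and second chow libraries held 162 and 17 barcodes at 1500 to 2000 UMIs and 104 and 21 at 2000 to 3000 UMIs. The part of barcode calling before deposit in this step at 2000 UMIs was not tested.

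Leaving out barcodes with Cd79a or Cd3e removed 355 of the 3657 kept barcodes with at least 1% platelet genes. A mitochondrial share of 10% or more kept out a further 175 barcodes, of which 46 were deep, and fewer than 200 genes kept out 12. Doublet calls fell on 14 of the 242 platelet barcodes and on 125 of the 3302 of the wider set. Among all kept barcodes they fell on 7057 of 62028, so neither count stood above that share. Libraries shared 437 of their 66255 barcode sequences. Such a sequence was carried by 2 platelet barcodes and 45 of the wider set, and 1 sequence was held by wider-set barcodes of more than 1 library.

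Among the surface receptors, each value below is a level in the 242 platelet barcodes. Itga2b, the integrin subunit for fibrinogen that the rule used, had 1602 CPM on NO2-OA, 1970.2 and 2089.7 on HFD + L-NAME, and 1946 and 2446 on chow. Its partner Itgb3, which the rule did not use, had 641 CPM on NO2-OA, 1970.2 and 916 on HFD + L-NAME, and 1439 and 1264 on chow. Both subunits were present in every library, with overlapping groups. Gp1bb, a rule gene of the von Willebrand factor receptor, had 0 CPM on NO2-OA, 0 and 117 on HFD + L-NAME, and 81.1 and 53.8 on chow, so that it was near or at its detection limit. Gp5, of the same complex, had 961 CPM on NO2-OA, 1159 and 1139 on HFD + L-NAME, and 729.8 and 1209.8 on chow. Treml1, a granule-membrane receptor exposed on activation and also a rule gene, had 641 CPM on NO2-OA, 1217 and 1139 on HFD + L-NAME, and 588 and 618 on chow. These receptors of adhesion stood within a factor of 2 of each other across libraries for Gp5 and Itga2b, but not for Itgb3 or Treml1.

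Cd9, a tetraspanin of the platelet membrane, had 11214 CPM on NO2-OA, 9503 and 12620.3 on HFD + L-NAME, and 5352 and 13819 on chow, against a median of 138 CPM in B-cell barcodes. Itga6, a laminin receptor subunit, had 4486 CPM on NO2-OA, 3361 and 2829 on HFD + L-NAME, and 4865 and 2581 on chow. Cd226, an adhesion receptor also found on T and natural killer cells, had 3525 CPM on NO2-OA, 3303 and 2477 on HFD + L-NAME, and 2676 and 2097 on chow. For Cd9 the first chow library was the lowest, and for Itga6 it was the highest. P2ry12, the ADP receptor blocked by clopidogrel, had 2563 CPM on NO2-OA, 753 and 704 on HFD + L-NAME, and 1196 and 995 on chow. Gp6, the collagen receptor, had 961 CPM on NO2-OA, 985 and 669 on HFD + L-NAME, and 729.8 and 995 on chow. The P2ry12 value on NO2-OA stood above those of all 4 other libraries but rests on 8 UMIs.

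Among the genes of granule cargo, Srgn, the proteoglycan that binds chemokines in granules, had 5767 CPM on NO2-OA, 4752 and 5248 on HFD + L-NAME, and 3771 and 6533 on chow, against a median of 1188 CPM in B-cell barcodes. Thbs1, the adhesive protein thrombospondin-1, had 320.4 CPM on NO2-OA, 3940.4 and 1902 on HFD + L-NAME, and 2797 and 2231 on chow. On NO2-OA the Thbs1 value came from 1 UMI. Clu, the chaperone clusterin, had 1602 CPM on NO2-OA, 985 and 1526 on HFD + L-NAME, and 507 and 995 on chow. The coagulation factor gene F5 had 961 CPM on NO2-OA, 811 and 1174 on HFD + L-NAME, and 1034 and 914 on chow. Vwf, encoding von Willebrand factor, had 641 CPM on NO2-OA, 579 and 646 on HFD + L-NAME, and 446 and 511 on chow. The Vwf levels of the 5 libraries lay within 446 and 646 CPM.

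Cytoskeletal genes gave some of the highest UMI counts, which are taken at transcript ends and not per length. Tmsb4x, encoding the actin-binding peptide thymosin beta-4, had 141301 CPM on NO2-OA, 95382 and 104473 on HFD + L-NAME, and 49625 and 97752 on chow. B-cell barcodes had a median of 5701 CPM. Actb, encoding beta-actin, had 23389.9 CPM on NO2-OA, 18659 and 20474 on HFD + L-NAME, and 12062 and 15297 on chow. Ctla2a, encoding a protease inhibitor, was not on any list but ranked next to Tmsb4x in mean CPM, with 36527 CPM on NO2-OA, 25960.5 and 29256 on HFD + L-NAME, and 11595 and 25352 on chow. For all 3 genes the first chow library was the lowest. Malat1, a nuclear RNA, had 961 CPM on NO2-OA, 2781 and 2583 on HFD + L-NAME, and 9426 and 1640.0 on chow, and here the first chow library was the highest.

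The signalling genes named here were present in every library. Rap1b, the small GTPase that switches on the fibrinogen integrin, had 4486 CPM on NO2-OA, 4983 and 4708 on HFD + L-NAME, and 4946 and 6399 on chow, against a median of 619.8 CPM in B-cell barcodes. Plek, encoding pleckstrin, a substrate of protein kinase C, had 1602 CPM on NO2-OA, 4636 and 3804 on HFD + L-NAME, and 3912 and 4812 on chow. Rgs18, a regulator of G-protein signalling, had 6729 CPM on NO2-OA, 1912 and 2184 on HFD + L-NAME, and 2352 and 2393 on chow. Rgs10, of the same family, had 2884 CPM on NO2-OA, 2724 and 3252 on HFD + L-NAME, and 1014 and 2930.4 on chow. The 2 family members differed in which library was highest, since Rgs18 stood highest on NO2-OA and Rgs10 in the second HFD + L-NAME library. Alox12, the platelet 12-lipoxygenase, had 3204 CPM on NO2-OA, 3013 and 2606 on HFD + L-NAME, and 2149 and 1855 on chow, with 12.4 CPM in B-cell barcodes. Ptgs1, the cyclooxygenase blocked by aspirin, had 320.4 CPM on NO2-OA, 289.7 and 188 on HFD + L-NAME, and 345 and 188 on chow. Tbxas1, the thromboxane synthase, had 320.4 CPM on NO2-OA, 348 and 211 on HFD + L-NAME, and 324 and 403 on chow.

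Genes of the nitric oxide and cyclic nucleotide path were also measured. Gucy1b1, the beta subunit of soluble guanylate cyclase, had 0 CPM on NO2-OA, 811 and 716 on HFD + L-NAME, and 628 and 1022 on chow. Its alpha subunit Gucy1a1 had 0 CPM on NO2-OA, 232 and 82.2 on HFD + L-NAME, and 122 and 80.7 on chow. Pde5a, the phosphodiesterase that breaks down cyclic GMP, had 0 CPM on NO2-OA, 289.7 and 211 on HFD + L-NAME, and 426 and 215 on chow. All 3 were at 0 on NO2-OA, which allows up to 961 CPM and therefore does not separate that library from the others. Prkar2b, a regulatory subunit of the cyclic AMP-dependent kinase, had 1602 CPM on NO2-OA, 2724 and 2113 on HFD + L-NAME, and 1946 and 2205 on chow. In B-cell barcodes the median level of Gucy1b1 was 2.18 CPM.

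Transcription factors of megakaryocytes were found in the platelet barcodes as RNA. Nfe2, which drives platelet release, had 961 CPM on NO2-OA, 811 and 657 on HFD + L-NAME, and 1196 and 779.7 on chow, against a median of 2.06 CPM in B-cell barcodes. Fli1 had 0 CPM on NO2-OA, 695 and 517 on HFD + L-NAME, and 1318 and 833 on chow, and Gata1 had 0 CPM on NO2-OA, 116 and 106 on HFD + L-NAME, and 142 and 161 on chow. Gclm, which encodes a subunit of the glutathione-synthesis enzyme and is a target of the electrophile sensor NRF2, had 1602 CPM on NO2-OA, 1623 and 2043 on HFD + L-NAME, and 2047 and 2554 on chow. Its level on NO2-OA, from 5 UMIs, was just below those of the other 4 libraries. Fth1, the ferritin heavy chain, had 19225 CPM on NO2-OA, 12053 and 13759 on HFD + L-NAME, and 8028 and 12421 on chow.

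RNA composition changed with depth in the wider set. Tmsb4x made up 15.6% of UMIs on NO2-OA, 10.5% and 12.2% on HFD + L-NAME, and 6.12% and 9.76% on chow in barcodes of 500 to 700 UMIs. In barcodes of 2000 to 3000 UMIs it made up 18.3% on NO2-OA, 21.0% and 16.1% on HFD + L-NAME, and 17.5% and 17.0% on chow. Its share was thus higher at 2000 to 3000 than at 500 to 700 UMIs in all 5 libraries, with 13 barcodes behind the deeper value on NO2-OA. From 10000 UMIs on it was 14.9% on NO2-OA, 20.6% and 4.58% on HFD + L-NAME, and 19.4% and 12.2% on chow. On NO2-OA (4 barcodes) and in the second HFD + L-NAME library (6 barcodes) this was below the share at 500 to 700 UMIs. Thinned to 500 UMIs, deep barcodes had medians of 215 genes on NO2-OA, 186 and 228 on HFD + L-NAME, and 199 and 208 on chow. Shallow barcodes had 218 on NO2-OA, 273 and 238 on HFD + L-NAME, and 313 and 270 on chow. At equal depth, shallow barcodes therefore held more different genes in each library, with the smallest gap on NO2-OA. The platelet-gene share had medians of 3.75% to 4.54% in deep barcodes and of 2.29% to 4.59% in shallow ones.

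**Figure D3:**
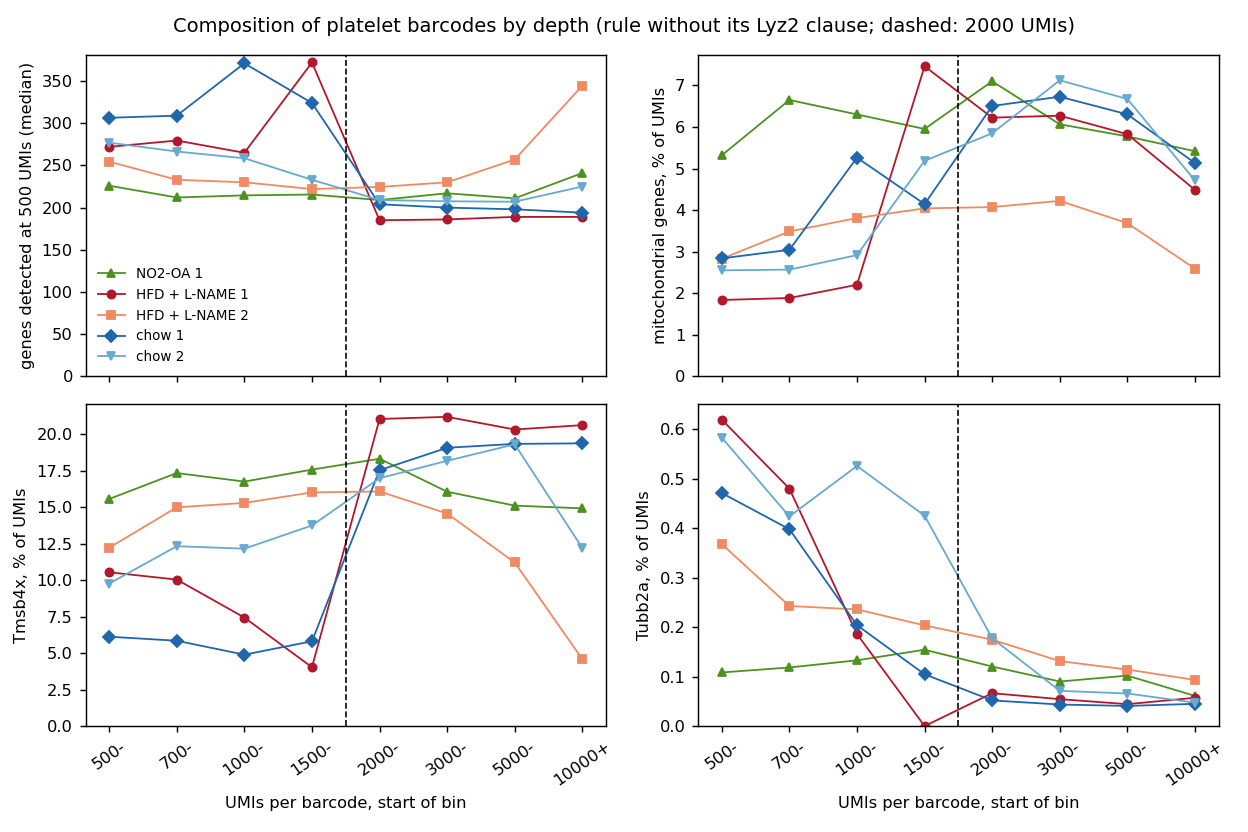
Composition of the wider platelet set in 8 bins of UMIs per barcode (horizontal axis, start of the bin), 1 line per library. The panels give shares of UMIs in percent and the median number of genes after thinning to 500 UMIs. Between the bins that start at 500 and at 2000 UMIs, Tmsb4x is higher at 2000 UMIs in all 5 libraries. The bin at 1500 UMIs of the first HFD + L-NAME library holds 1 barcode, and the deepest bin of the second HFD + L-NAME library holds 6.

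Deep and shallow barcodes were set against each other within each library as the log2 ratio of CPM with 20 CPM added, without a test, because UMIs define the classes. Of 1180 genes with a mean of at least 100 CPM in the higher class, 0 were at least 2-fold higher and 3 (0.254%) at least 2-fold lower in deep barcodes in all 5 libraries. The median over these genes was −0.31, so that values are best read against it. The 3 lower genes were Shb, an adaptor protein gene, with a median log2 ratio of −2.15, and the antibody genes Igkc (−1.97) and Ighm (−1.62). The wider set still leaves out barcodes with a Cd79a UMI, a clause that a barcode with few UMIs meets more easily. The part of this clause in the antibody genes was not tested. Shb had 37.9 CPM in the NO2-OA library, 32.3 and 55.8 in both HFD + L-NAME libraries, and 53.2 and 54.9 in the chow libraries in deep barcodes. In shallow ones Shb had 305 CPM on NO2-OA, 212 and 159.9 on HFD + L-NAME, and 309 and 202 on chow. The 2 groups of values did not overlap. With the second HFD + L-NAME library left out, 0 genes were higher and 25 lower in deep barcodes, and 3 were higher and 3 lower without the first chow library.

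Most genes had a lower level in deep barcodes, with 810 of the 1180 (68.6%) at a median log2 ratio below 0. So did all 16 signalling genes of sufficient level and all 6 genes of the nitric oxide and cyclic nucleotide path, with group medians of −0.59 and −0.41 beside the −0.31 of all genes. Rap1b had 1636 CPM in the NO2-OA library, 1636 and 2337 in both HFD + L-NAME libraries, and 1511 and 1900.5 in the chow libraries in deep barcodes. Its levels in shallow ones were 2166 CPM on NO2-OA, 5089 and 3221 on HFD + L-NAME, and 4333 and 4426 on chow. Gucy1b1 had 319.6 CPM on NO2-OA, 289 and 436 on HFD + L-NAME, and 270.3 and 384 on chow in deep barcodes, against 552 CPM on NO2-OA, 790.4 and 558 on HFD + L-NAME, and 617 and 999 on chow in shallow ones. The deep value was the lower of the pair in every library for both genes. For Nfe2, deep barcodes had 211 CPM on NO2-OA, 113 and 239.9 on HFD + L-NAME, and 139 and 172 on chow and shallow ones 262 CPM on NO2-OA, 694 and 396 on HFD + L-NAME, and 988 and 583 on chow. The group medians of the megakaryocyte transcription factors (−0.86), surface receptors (−0.49), NRF2 target and ferritin genes (−0.44), cytoskeletal genes (−0.29) and granule cargo (−0.12) spread around that of all genes.

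Some RNAs differed by library in their direction. Tmsb4x had 157776 CPM on NO2-OA, 206538 and 126620 on HFD + L-NAME, and 191953 and 159378 on chow in deep barcodes, against 168927 CPM on NO2-OA, 95038 and 148212 on HFD + L-NAME, and 56784 and 118206 on chow in shallow ones. It was thus higher in deep barcodes of the first HFD + L-NAME and of both chow libraries and lower in the other two. Cd9 had 16144 CPM on NO2-OA, 25099.6 and 14245 on HFD + L-NAME, and 20246 and 18566 on chow in deep barcodes and 17371 CPM on NO2-OA, 11547 and 16999.9 on HFD + L-NAME, and 6666 and 16409.7 on chow in shallow ones, which is higher in the deep class in the 2 mostly deep libraries and in the second chow library. The 72 ribosomal protein genes had median log2 ratios of 1.04 on NO2-OA, −0.14 and 1.07 on HFD + L-NAME, and −0.70 and 1.05 on chow. The 2 negative values belong to the 2 libraries whose wider set was mostly deep. Mitochondrial RNA had medians of −0.04 on NO2-OA, 1.30 and 0.09 on HFD + L-NAME, and 0.51 and 1.06 on chow.

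**Figure D4:**
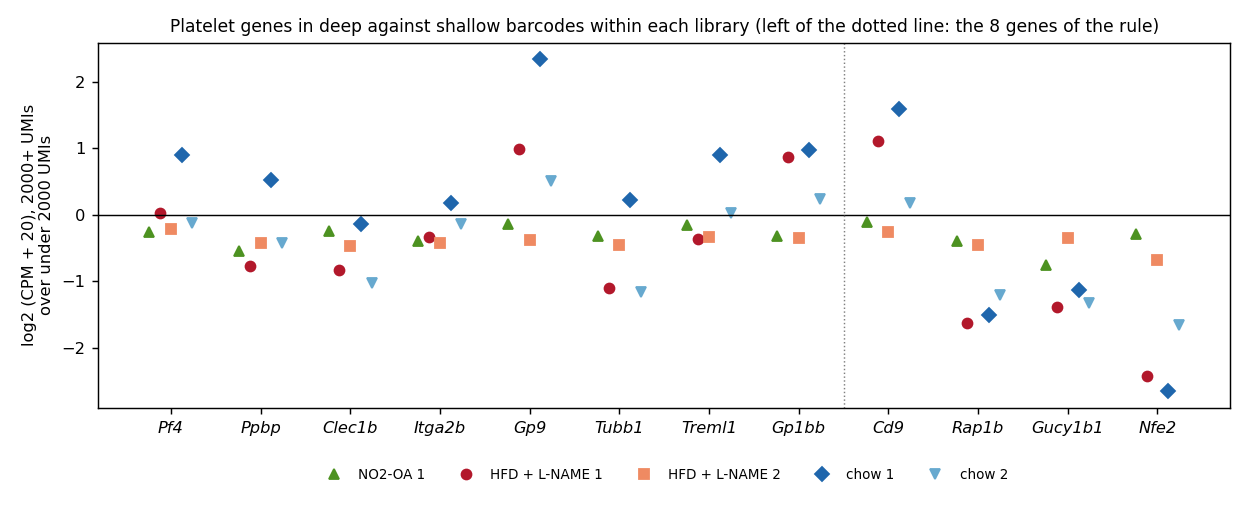
Log2 ratio of CPM in deep over shallow barcodes of the wider platelet set (vertical axis) for platelet genes, 1 point per library. The 8 genes of the rule stand left of the dotted line, and the horizontal line marks equal levels. Rap1b and Gucy1b1 lie below 0 in all 5 libraries.

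Setting HFD + L-NAME against chow addresses how platelet barcodes differed on the regimen. Platelet barcodes averaged 0.812% ± 0.839 of kept barcodes on HFD + L-NAME and 0.391% ± 0.135 on chow (SD, n = 2 each). The log2 ratio of means was 1.05, with an exact two-sided permutation p of 1, and 2 against 2 libraries cannot give a p below 0.333. The groups overlapped, and the ratio was −0.84 once the second HFD + L-NAME library was left out. In the wider set the means were 12.99% ± 11.82 on HFD + L-NAME and 3.38% ± 1.39 on chow, a log2 ratio of 1.94 with both HFD + L-NAME libraries above both chow libraries (exact permutation p = 0.333). Without the second HFD + L-NAME library this ratio was 0.46. By library the wider set made up 0.697% of kept barcodes on NO2-OA and 4.63% (4.26% to 5.02%) and 21.3% on HFD + L-NAME. On chow it made up 4.36% (4.06% to 4.67%) and 2.40%. The intervals of the first HFD + L-NAME and the first chow library overlapped. The deep share of platelet barcodes was 2.02 percentage points lower on HFD + L-NAME (exact permutation p = 1), and 0.93 points higher without the first chow library. The deep share of the wider set was 5.24 percentage points lower on HFD + L-NAME (exact permutation p = 0.667), and it was 33.1 points higher with the second HFD + L-NAME library left out and 28.6 points higher without the first chow library.

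In gene levels summed over the platelet barcodes of each library, 0 of 1103 tested genes (0%) passed edgeR's quasi-likelihood test with Benjamini-Hochberg adjustment in HFD + L-NAME against chow. At an unadjusted p under 0.05 there were 26, and DESeq2 called 0. Leaving out the second chow library gave 45 calls, the first chow library 5 and the second HFD + L-NAME library 2. Counts were simulated with the means and library sizes of these data and a fixed spread not estimated from them. On these the test recovered 34.6% of 2-fold and 81.4% of 4-fold changes, which holds for that fixed spread alone. Recovery at the spread of these libraries was not measured, so these percentages do not say what the libraries can show. In shallow barcodes alone 0 of 1067 genes passed, with 34 at an unadjusted p under 0.05, and leaving out the same 3 libraries gave 22, 5 and 2 calls.

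None of the platelet gene groups held a gene that passed. All 12 granule cargo genes tested lay above 0 in the fit, with a median log2 fold change of 0.30. Their median was 0.28 among the libraries numbered 1 and 0.38 among those numbered 2. Over all genes tested, 474 of 1103 lay above 0, with a median of −0.12. Single cargo genes did not all keep this direction within the numbers. F5, Serpine2 and Angpt1 lay below 0 among the libraries numbered 1, and Thbs1, Mmrn1, Srgn and Pdgfa among those numbered 2. Of the rule's own genes 6 of 7 lay above 0 (median 0.48, or 0.82 and 0.02 within the numbers). Receptors had 11 of 17 above 0 (median 0.23), cytoskeletal genes 11 of 16 (0.27), signalling genes 8 of 13 (0.21), nitric oxide and cyclic nucleotide genes 4 of 6 (0.29), and eicosanoid genes 2 of 4 (−0.05). Megakaryocyte transcription factors had 1 of 5 above 0 (median −0.44) and granule formation genes 1 of 5 (−0.12). Erythroid genes had 5 of 6 above 0, with a median of 1.21.

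The genes nearest to the threshold did not pass it. Gp9 is one of the genes that the rule selected on, so its level in these barcodes is in part set by the selection. How much of its difference between groups came from the selection was not tested. Gp9 had a log2 fold change of 1.46 ± 0.45 (SE, edgeR adjusted p = 0.985), with 1.49 among the libraries numbered 1 and 1.30 among those numbered 2. Its levels, given above, were higher in both HFD + L-NAME libraries than in both chow libraries, from 31 and 231 UMIs against 30 and 43. Cnn2, an actin-binding calponin gene, had 1602 CPM on NO2-OA, 985 and 552 on HFD + L-NAME, and 203 and 296 on chow (1.61 ± 0.53, edgeR adjusted p = 0.985). Sh3bgrl3 had 1282 CPM on NO2-OA, 1449 and 2289 on HFD + L-NAME, and 487 and 1237 on chow (1.24 ± 0.48). Mtdh had 641 CPM on NO2-OA, 174 and 129 on HFD + L-NAME, and 568 and 591 on chow (−1.94 ± 0.57, edgeR adjusted p = 0.985). Akap13 had −2.74 ± 0.93 and Mapre2 −1.70 ± 0.59. Akap13 had 0 and 7 UMIs on HFD + L-NAME against 35 and 6 on chow. Its change was −3.88 among the libraries numbered 1 and −0.59 among those numbered 2. In shallow barcodes alone the same rule also named Wnk1 (−3.84 ± 1.35) and Vmp1 (−1.67 ± 0.62), neither of which passed. Wnk1 had 0 and 2 UMIs on HFD + L-NAME against 28 and 1 on chow there, so its change rests on the first chow library. The change of Wnk1 was −3.66 among the libraries numbered 1 and 0.02 among those numbered 2.

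In the wider set, which has more UMIs, 8 of 7725 genes (0.104%) passed in HFD + L-NAME against chow, all higher. They were Retnlg, Lcn2, S100a9, S100a8, Wfdc21, Stfa2l1, Ifitm1 and Lrg1, and 5 of them are on the list of 12 neutrophil markers, of which 9 were tested. Retnlg, a secreted protein of neutrophils, had 387 CPM on NO2-OA, 106 and 147 on HFD + L-NAME, and 5.89 and 2.13 on chow (log2 fold change 4.75 ± 0.59, edgeR adjusted p = 0.000105). S100a9, a calcium-binding alarmin of neutrophils, had 3259.9 CPM on NO2-OA, 625 and 1257 on HFD + L-NAME, and 74.4 and 25.5 on chow (4.18 ± 0.66, edgeR adjusted p = 0.00375). Its partner S100a8 had 1831 CPM on NO2-OA, 404 and 1049 on HFD + L-NAME, and 69.6 and 23.4 on chow (3.85 ± 0.63, edgeR adjusted p = 0.00760). Within the libraries numbered 1 and 2 the log2 fold changes were 4.42 and 5.48 for Retnlg, 3.51 and 5.59 for S100a9, and 2.98 and 5.45 for S100a8. Without the second chow library S100a9 and S100a8 no longer passed (edgeR adjusted p = 0.229 for both). The count was 19 without the first chow, 17 without the second chow and 13 with the first HFD + L-NAME library left out. No platelet gene of the lists passed in the wider set either, with group medians of 0.14 for 21 receptors, 0.26 for 16 granule cargo genes, 0.24 for 20 signalling genes and 0.27 for 17 cytoskeletal genes.

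These neutrophil RNAs sat in few barcodes. In deep barcodes on NO2-OA, 1 barcode held 823 of 1281 UMIs of S100a8 and S100a9. In deep barcodes of the first HFD + L-NAME library, 58 of 482 held the 3065 UMIs of S100a8 and S100a9, and 1 barcode held 1087 of them. In those of the second HFD + L-NAME library 1 barcode held 864 of 4512 UMIs, and in the first chow library 1 held 170 of 671. The second chow library had 0 UMIs of both genes in its 52 deep barcodes. After barcodes with at least 1% of UMIs in neutrophil and monocyte markers were left out, which removed 2, 5, 8 and 5 deep barcodes, 1, 77, 49 and 75 of these UMIs remained in the same 4 libraries. Over the wider set 0 genes then passed, and the log2 fold changes were 1.02 for Retnlg, 2.12 for S100a9 and 2.59 for S100a8, each with an edgeR adjusted p of 1.00. The markers used to leave out barcodes include these genes themselves, so a fall in their levels was built into this step. In the remaining kept barcodes neutrophil markers made up 0.692% of UMIs on NO2-OA, 0.282% and 0.673% on HFD + L-NAME, and 0.0932% and 0.00649% on chow.

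**Figure D5:**
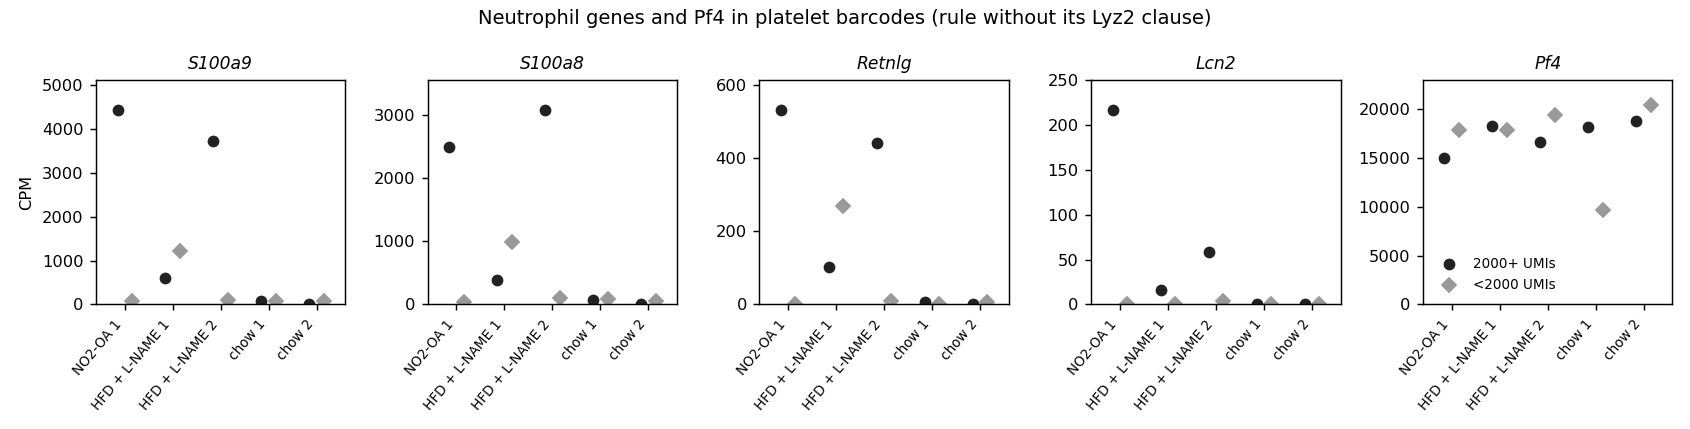
Level in CPM (vertical axis, from 0) of neutrophil genes and of Pf4 in deep and shallow barcodes of the wider platelet set, 1 point per library and class. S100a9 reaches 4442 CPM in deep barcodes on NO2-OA and 3723 CPM in the second HFD + L-NAME library, against 74.2 and 0 CPM in the chow libraries, while deep Pf4 lies between 15012 and 18786 CPM.

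Shallow and deep barcodes of the wider set were also compared between groups on their own. In shallow barcodes 2 of 1600 genes (0.125%) passed, both higher on HFD + L-NAME. S100a9 had 87.2 CPM on NO2-OA, 1214 and 106 on HFD + L-NAME, and 86.4 and 67.3 on chow there (3.15 ± 0.67, edgeR adjusted p = 0.00462), and S100a8 had 43.6 CPM on NO2-OA, 983 and 99.3 on HFD + L-NAME, and 86.4 and 61.7 on chow (2.93 ± 0.70, edgeR adjusted p = 0.0244). Of the 114 UMIs of both genes in the first HFD + L-NAME library, 111 were in 1 barcode. Neither gene passed once that library was left out, while 55 genes did without the second chow library. The log2 fold changes without the first HFD + L-NAME library were 1.08 for S100a9 and 1.06 for S100a8 (edgeR adjusted p = 0.990). In deep barcodes 0 of 5431 genes (0%) passed edgeR, with 74 at an unadjusted p under 0.05, while DESeq2 called 3. Without the first chow, second chow and second HFD + L-NAME library the deep count was 8, 18 and 18. Retnlg (5.58 ± 0.87) and Lcn2 (5.23 ± 0.88) came nearest, both with an edgeR adjusted p of 0.112, followed by Ifitm1 (3.72 ± 0.78, adjusted p = 0.369). The lower genes named by the same rule were Plac8 (−1.38 ± 0.84), Ramac (−0.72 ± 0.56) and Marchf8 (−0.82 ± 0.67), each with an edgeR adjusted p of 0.999. Whether the change on the regimen differed between deep and shallow barcodes was tested by an interaction term, which 7 of 4041 genes (0.173%) passed. This count was 0 when either chow library or the second HFD + L-NAME library was left out.

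The comparison of NO2-OA with HFD + L-NAME asks what the nitro-fatty acid changed on top of the regimen, and it rests on 1 NO2-OA library. In the 242 platelet barcodes 0 of 1103 genes (0%) passed edgeR, with 58 at an unadjusted p under 0.05, and DESeq2 called 0. Without the second chow library 9 passed and without the first chow library 1, although neither enters this contrast other than through the shared spread. Peg10 was nearest among the higher genes (2.38 ± 0.88, edgeR adjusted p = 0.730), from 5 UMIs on NO2-OA against 2 and 19 on HFD + L-NAME. Ddx6 (2.42 ± 0.97) and Glul (2.57 ± 1.09) followed, each with an edgeR adjusted p of 0.754. Among the lower ones, Thbs1 had −3.80 ± 1.09 and Hba-a1, a haemoglobin gene, −3.66 ± 1.04, each with an edgeR adjusted p of 0.715. The Thbs1 value rests on 1 UMI on NO2-OA, and 320.4 CPM is below the 961 CPM that a count of 0 allows there. In shallow barcodes of the wider set, with 211 UMIs of Thbs1 on NO2-OA, its level was 3067 CPM on NO2-OA against 4472 and 2275 on HFD + L-NAME (0.20 ± 0.85, edgeR adjusted p = 1.00). Lmna had 0 UMIs on NO2-OA, which allows up to 961 CPM. None of the 6 nitric oxide and cyclic nucleotide genes tested passed, nor did any of the 10 NRF2 target and ferritin genes. In shallow platelet barcodes 0 genes passed, with 59 at an unadjusted p under 0.05.

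In the wider set, 3 of 7725 genes (0.0388%) passed for NO2-OA against HFD + L-NAME, all higher. Ifitm1, an interferon-induced membrane protein gene, had 308 CPM on NO2-OA, 22.3 and 22.1 on HFD + L-NAME, and 3.57 and 2.13 on chow (3.23 ± 0.58, edgeR adjusted p = 0.0373, and 2.79 among the libraries numbered 1). The others were Eps8 (4.78 ± 0.82, edgeR adjusted p = 0.0373) and Vcan (4.32 ± 0.81, edgeR adjusted p = 0.0420). Without the first chow, second chow and second HFD + L-NAME library 11, 8 and 13 genes passed. With barcodes called as doublets left out, which removes 5 of the 32 deep barcodes of the NO2-OA library, 0 genes passed and Ifitm1 had a log2 fold change of −1.21. Monocyte markers made up 0.0330% of UMIs in deep barcodes on NO2-OA, 0.00408% and 0.0833% on HFD + L-NAME, and 0.00770% and 0.116% on chow. A replicate block gave more calls in every population and in both comparisons, as listed in the part on processing below. Without it, 0 of 1600 genes passed in shallow barcodes, with 40 at an unadjusted p under 0.05. F13a1, a subunit of the clot-stabilising factor XIII, was nearest among the higher ones (1.71 ± 0.64, edgeR adjusted p = 1.00), followed by Mif (1.68 ± 0.66) and Rplp1 (1.66 ± 0.64). Among the lower ones Otulin had 0 UMIs on NO2-OA, which allows up to 43.6 CPM, against 424 and 149 CPM on HFD + L-NAME (edgeR adjusted p = 0.245). In deep barcodes 0 of 5431 genes passed, with 152 at an unadjusted p under 0.05 and 48 calls once the second HFD + L-NAME library was left out. Ifitm1 (3.07 ± 0.76), Lcn2 (2.37 ± 0.74) and Dleu2 (2.10 ± 0.76) came nearest among the higher genes, each with an edgeR adjusted p of 0.994. Among the lower ones H2-Aa came nearest, with 0 UMIs on NO2-OA, which allows up to 16.3 CPM. It had 14.8 and 98.1 CPM on HFD + L-NAME. Mpc1 (−2.67 ± 0.88) followed, and then H2-Ab1, also at 0 UMIs on NO2-OA. Each of these lower genes also had an edgeR adjusted p of 0.994. The platelet gene groups had medians below 0 in deep barcodes, with −0.40 for 20 receptors, −0.38 for 14 granule cargo genes and −0.56 for 12 nitric oxide and cyclic nucleotide genes, beside −0.13 over all 5431 genes.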

How the data were processed

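The deposited files hold raw UMI counts per gene and barcode, 1 matrix of 33696 genes per library, made by the authors with Cell Ranger 7.1.0 per the file headers. Per the submitters' processing notes, reads were demultiplexed with bcl2fastq and counted with Cell Ranger on mouse genome mm39, and the annotation release is not given in the sources used here. No normalization had been applied. All 5 libraries were used, and groups came from the sample titles.

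Barcodes were chosen by the stated clauses (Python 3.11.15, scanpy 1.11.5, numpy 2.4.6). Doublet calls are the kept barcodes with the highest scrublet scores, and they were not removed. The called share was fixed in advance for each library at 0.8% per 1000 deposited barcodes, which gave 6.79% to 14.4%. Counts were summed per library and depth class. Genes were tested on these sums by the robust quasi-likelihood test of edgeR 4.0.16 (R 4.3.3) after filterByExpr and TMM scaling, with group as sole term, 1 estimate of the spread shared by the 5 libraries and Benjamini-Hochberg adjustment at 0.05, so the single NO2-OA library is assumed to vary like the others. The interaction fit had library as a block. CPM are sums scaled to 1000000 UMIs. Shares were compared by exact two-sided permutation of libraries (scipy 1.17.1). The edgeR steps were tested on counts simulated with a fixed spread. DESeq2 1.42.0, its size factors, no filter on low counts, a replicate block, other thresholds and depth splits, thinning to 500 UMIs and each library left out in turn were the alternatives.

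The members, gene lists and tests were chosen with earlier results of these data known. Genes were named by a rule. It took up to 4 higher and 4 lower genes past the threshold with the smallest p, a mean of at least 50 CPM and no overlap between libraries, or up to 3 each where none passed. From the lists it took the members with the highest mean, and other genes named were chosen after their values were seen. The wider set and the tests on it were added after the data were seen.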

Additional observations from a re-analysis of the deposited data

Results flagged for a closer look

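In the wider set, 7 genes differed in how the regimen's effect stood in deep against shallow barcodes, by the interaction term of edgeR over all 4041 genes tested. Each value is the log2 fold change of HFD + L-NAME over chow in deep barcodes minus that in shallow barcodes. Acod1, which makes the antibacterial metabolite itaconate in macrophages and neutrophils, differed by 8.24 ± 1.64 (SE, edgeR adjusted p = 0.00208). It had 255 CPM on NO2-OA, 37.9 and 448 on HFD + L-NAME, and 25.7 and 0 on chow in deep barcodes and 0 CPM on NO2-OA, 0 and 2.11 on HFD + L-NAME, and 123 and 0 on chow in shallow ones. Sgms2, a sphingomyelin synthase gene, differed by 6.89 ± 1.50 (edgeR adjusted p = 0.00944). Il1r2, the interleukin-1 decoy receptor, differed by 6.98 ± 1.59 (edgeR adjusted p = 0.0150), with 86.7 CPM on NO2-OA, 22.7 and 429.9 on HFD + L-NAME, and 21.6 and 0 on chow in deep barcodes and 0 CPM on NO2-OA, 19.3 and 3.52 on HFD + L-NAME, and 123 and 0 on chow in shallow ones. Csf1 differed by 8.67 ± 2.09, Dhx40 by 5.74 ± 1.39, Slc7a11 by 5.86 ± 1.44 and Entpd1 by 6.47 ± 1.60, with edgeR adjusted p-values of 0.0301, 0.0301, 0.0310 and 0.0318. For all 7 genes the shallow UMIs of the first chow library were few, from 7 for Entpd1 to 36 for Dhx40, and those of the second chow library were 0 to 2. The part of these low counts in the difference was not tested. Where a gene is at 0, the fitted value depends on the small count that the fit adds, and it is no bound. When either chow library or the second HFD + L-NAME library was left out, 0 genes passed.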

How the results depend on the processing

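Shares depended on single libraries. With each library left out in turn, the log2 ratio of the platelet share ran between −0.84 and 1.84, and that of the wider set between 0.46 and 2.66. The difference in deep share ran between −4.96 and 0.93 points, and in the wider set between −43.6 and 33.1 points. It was 0.54 points with platelet genes at 2% or more, where −2.02 was the stated value, and 2.11 points in the wider set with a mitochondrial share below 5%. At 5% platelet genes no deep platelet barcode was left. Counts by single library left out, in HFD + L-NAME against chow, ran from 0 to 45 in all and from 0 to 22 in shallow platelet barcodes. In the wider set they ran from 12 to 19 in all, 0 to 55 in shallow and 0 to 18 in deep barcodes. For NO2-OA against HFD + L-NAME they ran from 0 to 9 in all and 0 to 2 in shallow platelet barcodes, and from 3 to 13 in all, 0 to 0 in shallow and 0 to 48 in deep barcodes of the wider set. The interaction count ran from 0 to 10 and the count of genes at least 2-fold apart the same way in deep and shallow barcodes, higher and lower together, from 3 to 25.

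A replicate block gave 4 calls in all and 4 in shallow platelet barcodes, and 13, 4 and 10 in all, shallow and deep barcodes of the wider set, for HFD + L-NAME against chow, where the counts without it were 0, 0, 8, 2 and 0. For NO2-OA against HFD + L-NAME the block gave 5, 6, 20, 22 and 8 in the same order, where the counts without it were 0, 0, 3, 0 and 0. The numbers were not taken as a pairing, since only 2 pairs exist and the file names that set the numbers apart do not say what the libraries of a number share. Deviations from group means correlated between libraries of the same number at 0.0856 in all and 0.176 in shallow platelet barcodes, and at 0.381, 0.451 and 0.362 in all, shallow and deep barcodes of the wider set.

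For HFD + L-NAME against chow, platelet barcodes gave 2 calls with no filter on low counts, in all and in shallow ones, and 1 in shallow ones thinned to 500 UMIs. With a mitochondrial share below 5%, NO2-OA gave 5 calls in all and 5 in shallow platelet barcodes. In all barcodes of the wider set, the 8 calls became 4 with DESeq2, 4 with 4 libraries alone, 1 at 5% platelet genes and 1 without doublet calls. They became 0 without barcodes of 1% neutrophil and monocyte genes, 0 with a mitochondrial share below 5%, 0 at 2% platelet genes, 0 without barcodes with a UMI of 8 more leukocyte genes, and 0 when thinned. The 3 calls for NO2-OA became 5 with DESeq2 size factors and 0 with DESeq2, a mitochondrial share below 5%, 5% platelet genes, no doublet calls, no leukocyte-gene UMI, or thinning. In shallow barcodes the 2 calls became 4 with a split at 1500 UMIs, 5 with a split at 3000 UMIs and 1 without leukocyte-gene UMIs. They became 0 with DESeq2, no filter, 4 libraries alone, no barcodes of 1% neutrophil and monocyte genes, 2% or 5% platelet genes, no doublet calls, or thinning. NO2-OA gave 1 in shallow barcodes with a split at 3000 UMIs. In deep barcodes HFD + L-NAME gave 3 with DESeq2, 4 with its size factors, 7 with no filter, 1 at 5% platelet genes, 2 with either other split and 1 when thinned. NO2-OA gave 1 with no filter, 2 at 2% and 1 at 5% platelet genes there. The 7 interaction calls became 14 with a split at 3000 UMIs, 4 with a mitochondrial share below 5% and 2 without barcodes of 1% neutrophil and monocyte genes. They became 0 with DESeq2, no filter, 2% or 5% platelet genes, no leukocyte-gene UMI, a split at 1500 UMIs, or thinning. The count of genes at least 2-fold apart the same way in all libraries was 3 (0 higher and 3 lower in deep barcodes). It became 11 (0 and 11) without leukocyte-gene UMIs, 12 (9 and 3) with a mitochondrial share below 5%, 8 (1 and 7) when thinned and 0 at 2% platelet genes.

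Of single genes, Ifitm1 on NO2-OA turned to −1.21 in all and −7.95 in deep barcodes of the wider set without doublet calls, and Dleu2 to −7.63 in deep ones. Plac8 in deep barcodes, HFD + L-NAME against chow, turned to 0.31 with a mitochondrial share below 5%, 1.11 at 2% platelet genes and 0.0162 without doublet calls. All other combinations of a named gene and a setting kept the direction, those of these genes included. The call was the same in 674 of them, lost in 117 and gained in 46. The causes were not tested. Deep platelet barcodes by all clauses could not be fitted, since 3 libraries held none. Some alternatives were chosen after seeing the data. Depth limits all levels on NO2-OA, where 3121 UMIs stood behind the platelet barcodes.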
